A study of Homo sapiens with 16 samples.

Results

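The response to doxycycline-induced short hairpin RNAs (shRNAs) against PRRX1 was compared between Hs578 and TT642 cells. The difference between the responses of these lines was measured over 12 RNA sequencing libraries as the log2 change with doxycycline in Hs578 hairpin lines minus that in TT642 hairpin lines, called the line difference below. A positive line difference means that a gene rose more, or fell less, in Hs578. Of the 20114 genes in the count table, 9181 reached a mean of 5 CPM (counts scaled to library size and composition) in the uninduced hairpin lines of both lines, and these are called the expressed genes. They were thus chosen by their uninduced levels, with a floor that keeps out genes that are off in one of the lines. These uninduced libraries also enter the line difference, so the levels are given as a description. TAGLN, TNC, SESN2 and GDF15 were singled out with their line differences already known, and no test is given for them. At the edge of the floor, EPHB2 was just inside with 5.03 CPM in TT642 and a line difference of -0.96, and LIMD2 with 5.03 CPM in Hs578 and 1.17. SLC9A7, with 4.98 CPM in TT642 and -0.72, and SMAD9, with 4.90 CPM in Hs578 and 0.69, were just outside.

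The hairpin groups were Hs578 without doxycycline, Hs578 with 3 µg/ml doxycycline, TT642 without doxycycline and TT642 with 3 µg/ml doxycycline. Each held 3 libraries, titled shPRRX1_1, shPRRX1_2 and shPRRX1_3, and values below are listed in that order. A number was read as a derived line and is called a hairpin or hairpin line below. The labels do not state this, nor that a number is the same hairpin sequence in both lines. Ratios of single hairpin lines, and comparisons between hairpins, rest on this reading. The parental cells of each line, which carry no hairpin, were sequenced once with and once without the same dose. These 4 further libraries are not part of the line difference by which genes were called. They did enter the same fit, with its filter, scaling and estimate of spread. Hs578 carries a breast cancer source label and TT642 a rhabdoid tumour label, although the series design describes both as triple-negative breast cancer. The hairpins are driven by a tetracycline-inducible system, so the uninduced hairpin lines carry the same construct. No non-targeting hairpin was among the samples used here. Nothing in the labels says that the 3 libraries of a group come from separate cultures or transductions. The p-values therefore measure only the spread between these libraries.

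PRRX1 encodes a homeobox transcription factor that marks mesenchymal cells and is active in embryonic connective tissue and in fibroblasts. Tumour cells of mesenchymal character can express it together with genes of the extracellular matrix and of the contractile cytoskeleton. Cells that run short of amino acids, or whose endoplasmic reticulum is burdened, activate the integrated stress response, in which the transcription factor ATF4 is translated and switches on genes for amino acid import, amino acid synthesis and tRNA charging. ATF4 binds a composite DNA element together with C/EBP proteins.

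The libraries held 13461527 to 24672906 counts. Transcripts of the mitochondrial genome made up 2.16% to 2.79% of the counts in Hs578 without doxycycline, 3.18%, 4.27% and 5.44% in the induced Hs578 hairpin lines, 4.16% in induced parental Hs578, and 2.59% to 3.98% in TT642. VIM, the intermediate filament of mesenchymal cells, was at 4081 to 5874 CPM in Hs578 libraries and at 9915 to 11007 CPM in TT642 libraries. The epithelial genes EPCAM and CDH1 stayed at or under 0.366 CPM and the oestrogen receptor ESR1 at or under 0.607 CPM in all 16 libraries. The keratins KRT18 and KRT8, which luminal epithelium also makes, were at 185 to 401 and 27.7 to 56.4 CPM in Hs578 and at most at 1.54 CPM in TT642. ERBB2, which encodes HER2, was measured at 69.9 to 78.8 CPM in Hs578 and 109.7 to 173 CPM in TT642. FN1, which encodes fibronectin, separated the lines, at 10219 to 17802 CPM in Hs578 and 0.194 to 3.96 CPM in TT642. SMARCB1, a chromatin remodelling subunit that rhabdoid tumours typically lose, was measured at 28.8 to 41.6 CPM in TT642 and at 87.7 to 125 CPM in Hs578, so its transcript was present under the rhabdoid label. Of the lists of markers for epithelial, luminal breast, blood, endothelial, neural, skeletal muscle, adipocyte, and bone and cartilage cells, 1, 3, 1, 0, 2, 1, 0 and 0 genes passed the floor in both lines, which leaves out those abundant in Hs578 alone. SOX10, MYOD1, MYOG and CD3E had no count in any library. For the muscle list, the summed level ran from 160 to 175 CPM in uninduced and from 184 to 286 CPM in induced Hs578 hairpin lines, against 134 to 142 and 164 to 212 CPM in TT642. For the neural list it ran from 239.7 to 247 and from 318 to 460.0 CPM in Hs578, against 114 to 195 and 173 to 189 CPM in TT642. For the epithelial list it ran from 384 to 476 and from 357 to 444 CPM in Hs578, against 105 to 132 and 115 to 148 CPM in TT642. For the luminal list it ran from 618 to 736 and from 557 to 643 CPM in Hs578, against 363 to 376 and 366 to 385 CPM in TT642. The bone and cartilage list stood lower in every induced Hs578 hairpin line, at 116 to 156 CPM, than in the uninduced ones, at 177 to 219.9 CPM, and at 10.5 to 18.7 CPM in TT642 hairpin lines. The part of such cells in the results was not tested.

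The target of the hairpins was lower after induction in all 6 hairpin lines. In Hs578, PRRX1 stood at 291, 227 and 262 CPM without and 37.1, 72.8 and 51.0 CPM with doxycycline. In TT642 it stood at 1213, 1409 and 1301 CPM without and 265, 184 and 513 CPM with doxycycline. The hairpins left 12.7%, 32.1% and 19.5% of the uninduced level in Hs578 and 21.8%, 13.0% and 39.4% in TT642, and the groups with and without doxycycline did not overlap in either line. The line difference of PRRX1 was -0.25 (SE 0.49), with an adjusted p of 0.81, so a difference in knockdown between the lines was not detected beside this spread.

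Nearly all changes that were called lay in Hs578. By the quasi-likelihood test of edgeR, with p-values adjusted over all 14035 genes tested by the Benjamini-Hochberg method and a threshold of 0.05, the doxycycline effect was called for 3374 of the 9181 expressed genes in Hs578 hairpin lines (36.7%) and for 3 in TT642 hairpin lines (0.0327%). PRRX1 itself had a log2 fold change of -2.28 in Hs578 (adjusted p = 0.0022) and -2.03 in TT642, where it was not called (adjusted p = 0.17). The number of calls in TT642 is therefore no count of the genes that changed there. The line difference itself was called for 641 expressed genes (6.98%), of which 345 were higher in Hs578 (3.76%) and 296 lower (3.22%). Higher and lower refer here to the sign of the line difference and not to the level, and rose and fell are kept for changes within a line that were called there. At an unadjusted p under 0.05 there were 2869 expressed genes (31.2%). Over all genes tested the count was 735 (5.24%), with 387 higher (2.76%) and 348 lower (2.48%). Among the 345 genes, the median change was 0.60 in Hs578 and -0.05 in TT642. For the 296 genes it was -0.58 and 0.06. The line difference contains both changes, so these medians describe which line supplied it and are no further test. Most differences were moderate, and 61 of the 641 reached 2-fold. The log2 ratios of the 3 Hs578 hairpin lines lay wholly above or below those of TT642 for 3798 of the expressed genes (41.4%), and for 640 of the called ones, which their choice largely fixes. In RNA of whole cultures, fewer cells expressing a gene and less RNA per cell cannot be told apart. Over all expressed genes, the changes in the lines, which share no library, correlated across genes at a Pearson coefficient of 0.24 and a Spearman coefficient of 0.25.

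**Figure D1:**
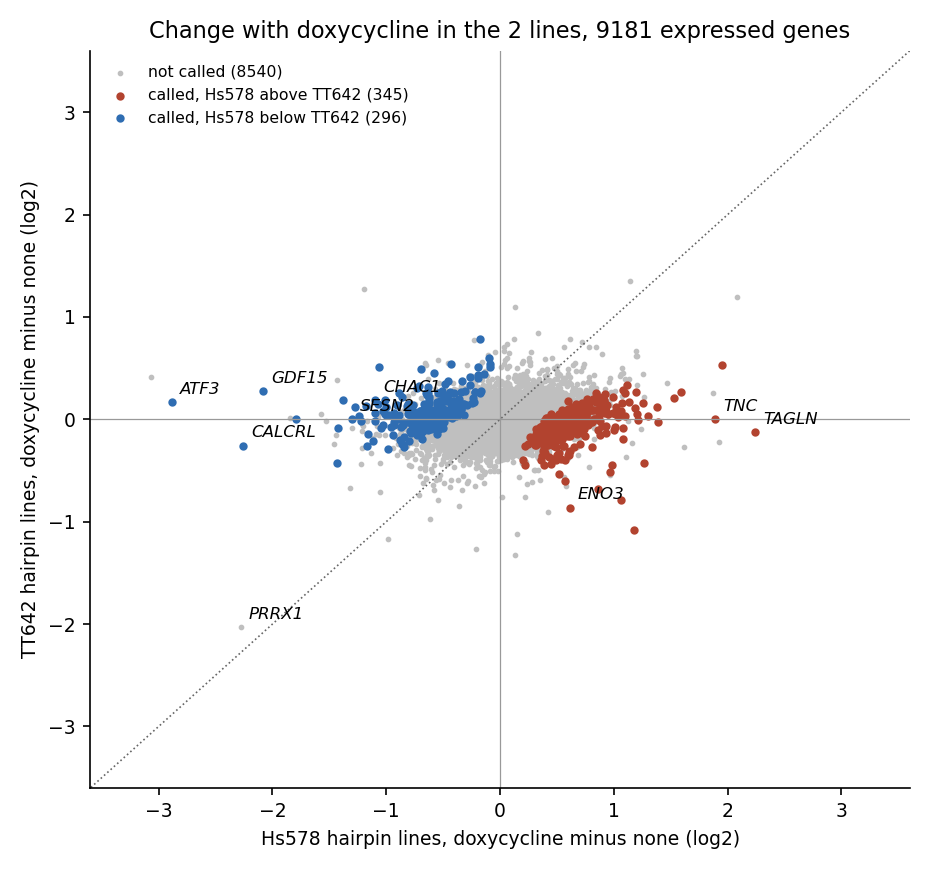
Change with doxycycline of the 9181 expressed genes, as log2 fold change of the hairpin lines in Hs578 (horizontal axis) and TT642 (vertical axis). Each point is a gene; red points are the 345 genes called higher and blue points the 296 called lower in Hs578 than in TT642, grey points are not called, and the dotted line marks equal change. The called genes spread along the horizontal axis, and PRRX1 lies near the line of equal change.

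TAGLN encodes transgelin, an actin-binding protein of smooth muscle and contractile fibroblasts, and had the most positive line difference among called expressed genes. In Hs578 hairpin lines it was measured at 55.3, 83.3 and 59.8 CPM without and 218, 219 and 501 CPM with doxycycline. In TT642 it was measured at 199, 147 and 178 CPM without and 177, 121 and 182 CPM with doxycycline. The induced Hs578 libraries all lay above the uninduced ones, with hairpin 3 far above the other two, while the TT642 groups overlapped. The group means went from 66.1 ± 15 to 313 ± 163 CPM in Hs578, against 175 ± 26.1 to 160.2 ± 33.6 CPM in TT642 (SD, n = 3), a line difference of 2.37 (SE 0.47). Parental cells went from 65.2 to 122 CPM in Hs578, against 222 to 126 CPM in TT642, so that part of this contrast was also seen without a hairpin.

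TNC encodes tenascin-C, a matrix glycoprotein of wounds and tumour stroma. In Hs578 hairpin lines it stood at 25.9, 27.7 and 23.3 CPM without and 65.2, 92.4 and 127 CPM with doxycycline. In TT642 hairpin lines it stood at 21.7, 25.1 and 19.1 CPM without and 28.3, 14.7 and 23.3 CPM with doxycycline. The uninduced levels of the lines overlapped, and the induced Hs578 libraries lay above every other hairpin library. The line difference was 1.89 (SE 0.37), from means of 25.6 ± 2.19 to 94.9 ± 31.0 CPM in Hs578 and 22.0 ± 3.01 to 22.1 ± 6.85 CPM in TT642. Parental Hs578 went from 25.2 to 42.6 CPM. Parental TT642 went from 82.3 to 89.2 CPM, far above every TT642 hairpin library, with or without doxycycline.

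SESN2 encodes sestrin 2, a leucine sensor that restrains the growth kinase mTORC1 and is a target of ATF4. It stood at 39.5, 56.8 and 47.8 CPM without and 17.1, 22.4 and 19.1 CPM with doxycycline in Hs578 hairpin lines. In TT642 hairpin lines it stood at 545, 497 and 537 CPM without and 495, 517 and 566 CPM with doxycycline. The Hs578 groups did not overlap, the TT642 groups did, and every TT642 library lay above every Hs578 library. The line difference was -1.30 (SE 0.18), and the parental libraries gave -0.64.

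GDF15 encodes a secreted stress hormone of the TGF-beta superfamily. It stood at 16.9, 37.2 and 18.5 CPM without and 3.94, 7.26 and 6.03 CPM with doxycycline in Hs578 hairpin lines. In TT642 hairpin lines it stood at 253, 252 and 240.0 CPM without and 282, 360.4 and 259 CPM with doxycycline. It was lower after induction in each Hs578 hairpin line and higher in each TT642 hairpin line, with means of 24.2 ± 11.3 to 5.75 ± 1.68 CPM in Hs578 and 248 ± 7.28 to 300.5 ± 53.1 CPM in TT642 and a line difference of -2.36 (SE 0.42).

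**Figure D2:**
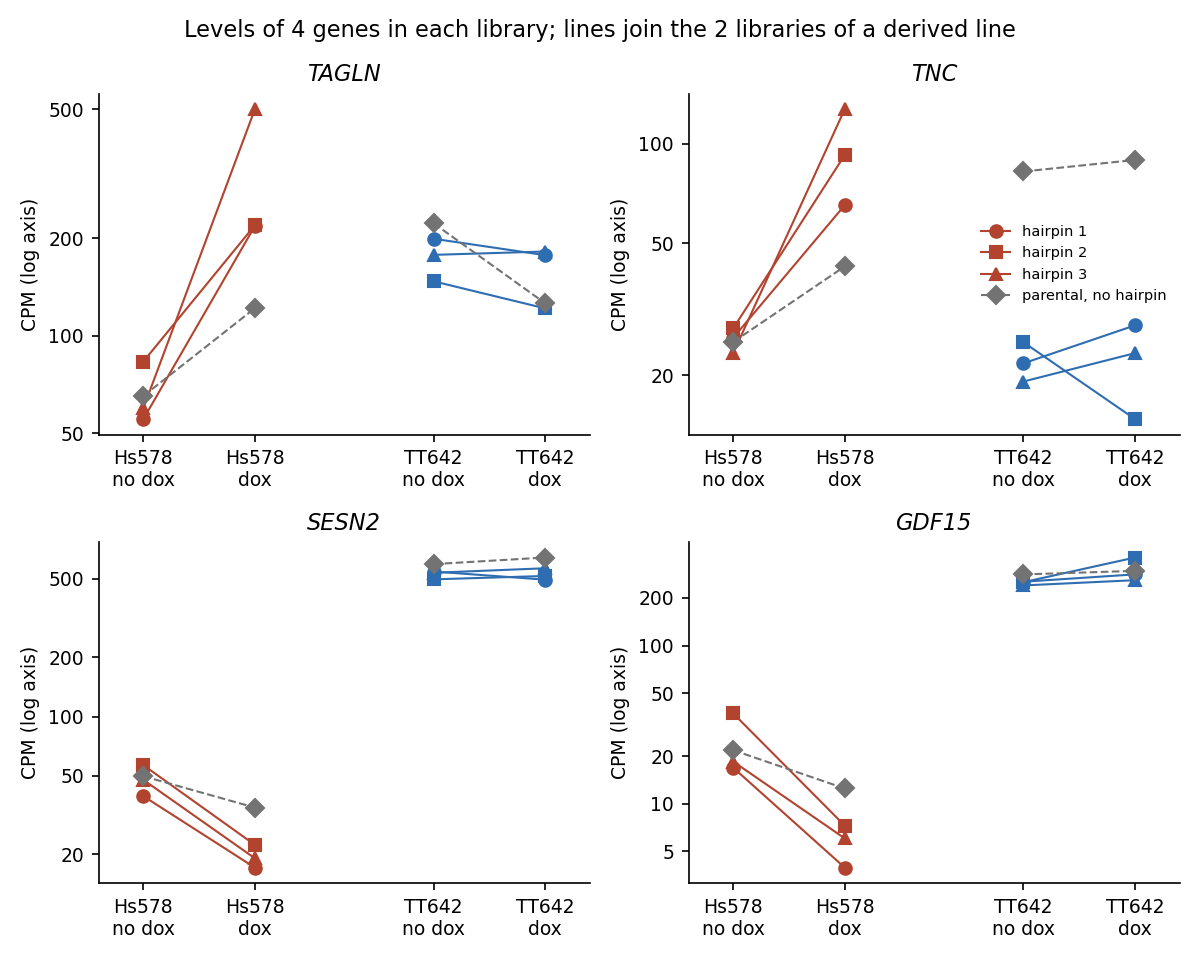
Levels of TAGLN, TNC, SESN2 and GDF15 in all 16 libraries, in CPM on a log axis, without and with doxycycline (dox). Red marks Hs578 and blue TT642 hairpin lines, with 1 marker shape per hairpin number, and grey diamonds the parental cells. In Hs578 the hairpin lines with and without doxycycline do not overlap for any of the 4 genes, while TAGLN, TNC and SESN2 overlap in TT642.

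Among the gene lists, the amino acid branch of the integrated stress response held the most genes called lower. Of 38 expressed members of that list, 13 were called, all of them lower, where 3.22% of all expressed genes were called in that direction. The median line difference of the list was -0.47, against 0.00 over all expressed genes, from a median of -0.42 in Hs578 and 0.04 in TT642. In Hs578 alone, 21 of the 38 fell and 1 rose, where 17.4% of all expressed genes fell and 19.4% rose. The parental line difference of the list had a median of -0.18, against -0.05 over all expressed genes. It was negative for 26 of the 38, where it was for 5085 of the 9181 expressed genes. The list was chosen with earlier results of these data known and is described here by its counts. Its 13 called members take part in amino acid transport (SLC7A11, SLC7A1, SLC38A2, SLC1A4 and SLC6A9), in amino acid synthesis (PSAT1 and CTH), in tRNA export (XPOT), in glutathione breakdown (CHAC1), in transcription (CEBPG and JDP2) and in stress signalling (SESN2 and GDF15).

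Promoters of 5 of these 13 genes held the composite element TGATGNAA, to which ATF4 binds together with C/EBP proteins, and 3 of them are printed because the element lies upstream of the start of transcription in a gene that was called. The stretches are from RefSeq on GRCh38.p14, each on the plus strand and 80 bases long, written 5′ to 3′ with the element in capitals. The CEBPG stretch is chr19:33374033-33374112, that of CHAC1 chr15:40953226-40953305 and that of JDP2 chr14:75427942-75428021. In CHAC1 the element lies on the minus strand and is printed as its reverse complement TTGCATCA.
CEBPG: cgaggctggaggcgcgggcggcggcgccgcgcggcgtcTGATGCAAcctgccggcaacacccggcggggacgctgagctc
CHAC1: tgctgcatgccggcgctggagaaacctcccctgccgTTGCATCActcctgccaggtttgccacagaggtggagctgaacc
JDP2: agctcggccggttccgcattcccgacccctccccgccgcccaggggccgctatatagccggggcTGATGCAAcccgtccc

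The element was searched on both strands from 250 bases before to 50 after each RefSeq start, and a gene can have several starts. Of the 13 called stress genes, 12 matched the table by symbol, and 5 of their 16 windows held the element, in CEBPG, CHAC1, JDP2, SLC1A4 and SLC7A1. Over all expressed members of the list, called or not, it was in 10 of 51 windows (19.6%). Those included the uncalled ASNS, GARS, MARS, SLC1A5 and SLC3A2. The list was made of genes of the ATF4 pathway, so a high share goes with its choice and does not set the called members apart. The element stood in 28 of 406 windows of genes called lower in Hs578 (6.90%), in 2 of 419 windows of genes called higher (0.477%), in 207 of 11348 windows of all expressed genes (1.82%) and in 1270 of 35116 windows of the whole table (3.62%). A match is a run of letters and not a measured binding site. The windows were not matched for base composition, which differed between the genes called higher and lower as given below.

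SLC7A11 encodes the cystine importer that supplies glutathione synthesis. In Hs578 hairpin lines it fell from 438, 440.2 and 414 to 220.0, 170.1 and 165 CPM (log2 fold change -1.22, adjusted p = 8.5e-05). In TT642 it stood at 88.5, 93.3 and 72.9 CPM without and 86.9, 85.1 and 79.6 CPM with doxycycline, and these groups overlapped. The difference between the lines was called (line difference -1.20, SE 0.16, adjusted p = 0.004). Parental Hs578 went from 577 to 165 CPM and parental TT642 from 113 to 105 CPM, a parental line difference of -1.70, and the parental Hs578 ratio of -1.80 was larger in size than the -0.99, -1.37 and -1.33 of the hairpin lines.

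CHAC1, which degrades glutathione, fell in Hs578 from 38.3, 46.7 and 52.5 to 16.7, 24.2 and 23.5 CPM and stood in TT642 at 160.4, 159.5 and 164 CPM without and 180.4, 203 and 168 CPM with doxycycline (line difference -1.28, SE 0.19, adjusted p = 0.0061). CEBPG, a dimer partner of ATF4, went from 103 ± 10.8 to 75.5 ± 2.25 CPM in Hs578, against 232 ± 18.0 to 241 ± 15.3 CPM in TT642 (line difference -0.50, SE 0.13, adjusted p = 0.042). JDP2, a repressor of the AP-1 family, went from 27.1 ± 4.37 to 18.5 ± 2.35 CPM in Hs578, against 108 ± 6.68 to 111 ± 0.829 CPM in TT642 (line difference -0.59, SE 0.16, adjusted p = 0.0499). The line differences of these regulators were smaller in size than those of the transporter and the enzyme. SLC7A1, an importer of arginine and lysine, went from 194 ± 14.8 to 125 ± 3.92 CPM in Hs578, against 511 ± 0.87 to 540.2 ± 12.6 CPM in TT642 (line difference -0.72, SE 0.11, adjusted p = 0.007). PSAT1, an enzyme of serine synthesis, stood in uninduced Hs578 lines at 197, 334 and 271 CPM and in induced ones at 173, 168 and 160.4 CPM, with the lowest uninduced value close to the induced ones (line difference -0.77, SE 0.19, adjusted p = 0.041).

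Other well-known members of the pathway were not called. ATF4 itself had a line difference of -0.26 (SE 0.19), with an adjusted p of 0.43, and DDIT3, the pro-apoptotic factor CHOP, one of -0.22 (SE 0.17), with 0.45. ASNS, asparagine synthetase, had -0.67 (SE 0.23) with an adjusted p of 0.096, and TRIB3, an inhibitor in the same pathway, -1.10 (SE 0.35) with 0.092. The uninduced level of many called genes also differed between the lines, with SESN2, GDF15, CHAC1, SLC7A1, PSAT1, CEBPG and JDP2 higher in every uninduced TT642 hairpin library than in every Hs578 one, and SLC7A11, SLC38A2 and CTH lower. Genes for protein folding in the endoplasmic reticulum, a neighbouring stress branch, gave 2 called of 19 (10.5%), HERPUD1 and SEL1L, both lower, and a median line difference of -0.15. Among 22 p53 target genes the only called ones were SESN2 and GDF15 (9.09%), which the amino acid list also holds. Of all expressed genes, 3.22% were called lower.

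ATF3, a stress-induced transcription factor of the ATF family, had the most negative value of the called expressed genes (line difference -3.05, SE 0.70, adjusted p = 0.044). It stood at 53.3, 31.6 and 9.50 CPM without and 3.88, 3.88 and 4.91 CPM with doxycycline in Hs578 and at 84.3, 92.5 and 76.9 CPM without and 93.1, 97.7 and 93.5 CPM with doxycycline in TT642. The uninduced Hs578 lines ranged widely, and the fall with hairpin 3 was the smallest of the 3. Its adjusted p was 0.053 with the hairpin as a block. ATF3 was the only one of 20 expressed immediate early genes that was called (5%, against 3.22% of all expressed genes), although the median of that list was -0.56. The log2 ratio of the median member was -1.22, -0.37 and 0.14 in the 3 Hs578 hairpin lines, and so differed in sign between same-numbered pairs.

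Several cell surface and signalling genes were among the 12 most negative line differences. CALCRL, the receptor subunit for calcitonin gene-related peptide and adrenomedullin, fell in Hs578 from 7.21, 4.45 and 7.6 to 1.09, 1.90 and 1.12 CPM, while TT642 stood at 7.82, 8.41 and 7.40 CPM without and 7.05, 5.16 and 7.54 CPM with doxycycline (line difference -2.0, SE 0.35, adjusted p = 0.013). PTGS2, the inducible cyclooxygenase, went from 26.2 ± 12.1 to 7.59 ± 2.49 CPM in Hs578 and 38.3 ± 5.02 to 38.4 ± 5.01 CPM in TT642 (line difference -1.79, SE 0.44, adjusted p = 0.048, and adjusted p = 0.11 with the hairpin as a block). NCAM2, a neural adhesion molecule, went from 29.1 ± 5.6 to 11.2 ± 1.63 CPM in Hs578 and 25.8 ± 3.62 to 29.6 ± 4.04 CPM in TT642 (line difference -1.57, SE 0.22, adjusted p = 0.0049). KITLG, the ligand of the KIT receptor, stood at 18.1, 11.9 and 15.8 CPM without and 5.30, 4.29 and 7.27 CPM with doxycycline in Hs578 and went from 6.60 ± 1.27 to 6.18 ± 0.448 CPM in TT642, where the groups overlapped, a line difference of -1.34.

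PDP1, a phosphatase that activates pyruvate dehydrogenase, had group means that went in opposite directions, since it fell in Hs578 from 151, 139 and 135 to 72.1, 65.7 and 65.1 CPM and was measured in TT642 at 34.2, 43.6 and 37.9 CPM without and 38.6, 74.4 and 51.7 CPM with doxycycline (line difference -1.58, SE 0.26, adjusted p = 0.013). RND3, an atypical small GTPase that opposes contraction, fell from 499, 566 and 513 to 180.3, 244 and 271 CPM in Hs578, where its level was far above that in TT642, with means of 17.2 ± 4.74 to 19.0 ± 5.46 CPM (line difference -1.31, SE 0.33, adjusted p = 0.045). In parental Hs578 it was higher with doxycycline, going from 616 to 733 CPM. GPC6, a glypican, showed a line difference of -1.40 in hairpin lines and 0.14 in parental cells. ZFHX2, a zinc finger homeobox gene, went from 7.03 ± 0.287 to 2.98 ± 0.843 CPM in Hs578 and 19.3 ± 1.61 to 19.8 ± 1.82 CPM in TT642, a difference of -1.27.

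Targets of the YAP and TEAD transcription factors, which report cell spreading and tension, gave 3 called of 18 expressed, all lower: AXL, ASAP1 and PTPN14. This was 16.7%, against 3.22% of all expressed genes. The list median was -0.33, and 10 of the 18 fell in Hs578, against 17.4% of all expressed genes. AXL, a receptor tyrosine kinase, had levels of 1735, 1759.8 and 1774 CPM without and 1565, 1486 and 1331 CPM with doxycycline in Hs578, a change that was not called there (adjusted p = 0.062), and means of 50.2 ± 4.65 to 63.3 ± 7.37 CPM in TT642, so its difference between lines (line difference -0.60, SE 0.15, adjusted p = 0.038) was drawn from both lines. ASAP1, which remodels focal adhesions, fell in Hs578 from 439.9 ± 30.2 to 273 ± 20.1 CPM (line difference -0.49, SE 0.12, adjusted p = 0.042). PTPN14, a phosphatase that restrains YAP, fell from 251 ± 26.5 to 177 ± 9.24 CPM (line difference -0.48, SE 0.13, adjusted p = 0.047). The classical targets CTGF and CYR61 had line differences of 0.09 (SE 1.16) and -0.23 (SE 0.39) and were not called.

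Cholesterol synthesis gave 4 called of 22 expressed genes, all lower, among them SQLE, LSS and CYP51A1, with a list median of -0.25. These were 18.2% of the list, against 3.22% of all expressed genes. SQLE, squalene epoxidase, fell in Hs578 from 382, 321 and 355 to 219, 209 and 232 CPM and stood in TT642 at 58.3, 60.4 and 54.2 CPM without and 52.4, 54.8 and 52.9 CPM with doxycycline (line difference -0.57, SE 0.12, adjusted p = 0.024). Parental Hs578 went from 349 to 375 CPM, and the parental median of the list was 0.08. LSS, lanosterol synthase, fell from 169 ± 2.93 to 119 ± 11.8 CPM (line difference -0.75, SE 0.16, adjusted p = 0.028). For 13 expressed genes of fatty acid synthesis edgeR called 0, DESeq2 2, and 6 had an unadjusted p under 0.05, all with a negative difference, where 1396 of the 9181 expressed genes did (15.2%).

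Genes of the extracellular matrix and of its processing enzymes were called with positive line differences. Of 20 expressed matrix enzymes, 7 were called, all higher in Hs578: BMP1, PLOD1, P4HA2, P4HA1, LEPRE1, SERPINH1 and PLOD3. The background in that direction was 3.76%. The list median was 0.49, and 13 of the 20 rose in Hs578, against 19.4% of all expressed genes. BMP1, the protease that trims procollagen, rose in Hs578 from 93.4, 89.6 and 94.2 to 168, 236 and 239 CPM and stood in TT642 at 22.8, 21.2 and 25.4 CPM without and 21.5, 23.0 and 24.6 CPM with doxycycline (line difference 1.22, SE 0.17, adjusted p = 0.0048). PLOD1, a collagen lysyl hydroxylase, rose from 416 ± 14.3 to 843 ± 121 CPM in Hs578 (line difference 0.90, SE 0.16, adjusted p = 0.013). P4HA2, a collagen prolyl hydroxylase, rose from 152 ± 10.3 to 287 ± 29.3 CPM (line difference 0.73, SE 0.13, adjusted p = 0.015). SERPINH1, the collagen chaperone HSP47, rose from 169 ± 36.1 to 441 ± 159 CPM (line difference 1.26, SE 0.31, adjusted p = 0.043). All 20 enzymes also had a positive line difference in parental cells, with a median of 0.78.

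Among matrix proteins themselves 3 of 25 expressed genes were called (12%, against 3.76% of all expressed genes), TNC, TGFBI and EFEMP2. The list median was 0.20 in hairpin lines and 0.74 in parental cells. The hairpin median was 0.40 without the induced Hs578 hairpin 1 library, 0.10 without the induced Hs578 hairpin 3 library and 0.40 with an adjustment for transcript length and GC content. TGFBI, an adhesive matrix protein induced by TGF-beta, was measured at 749, 691 and 734 CPM without and 2117, 3065 and 3214 CPM with doxycycline in Hs578. In TT642 it was measured at 344, 361 and 238 CPM without and 416, 610.5 and 333 CPM with doxycycline. It was higher after induction with each hairpin in both lines, and the change was larger in Hs578 (line difference 1.42, SE 0.32, adjusted p = 0.037). EFEMP2, an elastic fibre protein, stood at 17.5, 20.3 and 20.2 CPM without and 36.0, 57.6 and 80.7 CPM with doxycycline in Hs578 and at 83.4, 70.7 and 94.3 CPM without and 98.4, 96.7 and 103 CPM with doxycycline in TT642 (line difference 1.33, SE 0.32, adjusted p = 0.042). COL1A1, the main chain of collagen I, had a higher mean after induction in both lines, with means of 2180.2 ± 146 to 9226 ± 2805 CPM in Hs578 and 238 ± 123 to 543 ± 508 CPM in TT642, and no difference between the lines was called (line difference 0.89, SE 0.86, adjusted p = 0.57).

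Contractile genes gave 3 called of 20 expressed (15%, against 3.76% of all expressed genes), TAGLN, MYL9 and TPM2. The list median was 0.09, which turned to -0.07 on FPKM values. MYL9, a myosin light chain of smooth muscle, rose in Hs578 from 419.7, 521 and 421 to 779, 985 and 1345 CPM (line difference 0.92, SE 0.22, adjusted p = 0.04). TPM2, beta-tropomyosin, rose from 648, 698 and 685 to 983, 1316 and 1771 CPM (line difference 0.94, SE 0.23, adjusted p = 0.041). For both genes hairpin 3 gave the highest induced value. ACTA2, smooth muscle actin, had a difference of the same sign that missed the threshold (line difference 1.61, SE 0.42, adjusted p = 0.053). The CArG box, the element bound by serum response factor, was in 9 of 34 promoter windows of the expressed members (26.5%). It was in 1.14% of the windows of all expressed genes and in 3 of 419 windows of the genes called higher (0.716%). Of the 3 called contractile genes only 1 matched the promoters by symbol, and 0 of its 2 windows held the box, so the others were not searched. Of 22 TGF-beta targets only TGFBI was called (4.55%, near the 3.76% of all expressed genes), with a list median of 0.53 in hairpin lines and 0.45 in parental cells.

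SAMD11, a chromatin-associated protein, rose in Hs578 from 6.74, 5.91 and 5.76 to 13.1, 18.9 and 12.7 CPM against 102, 73.2 and 115 CPM without and 75.0, 66.3 and 74.6 CPM with doxycycline in TT642 (line difference 1.69, SE 0.25, adjusted p = 0.007). A4GALT, which makes the glycolipid Gb3, went from 7.28 ± 0.323 to 14.3 ± 3.51 CPM in Hs578 and 8.35 ± 1.32 to 5.85 ± 0.297 CPM in TT642 (line difference 1.48, SE 0.25, adjusted p = 0.013). HIC1, a transcriptional repressor, went from 11.6 ± 0.3 to 22.9 ± 5.69 CPM and 11.4 ± 2.33 to 8.28 ± 1.93 CPM (line difference 1.42, SE 0.28, adjusted p = 0.022). CRIP2, a LIM domain protein, rose in Hs578 from 27.4, 28.7 and 29.1 to 44.9, 90.1 and 87.4 CPM, with the smallest rise for hairpin 1 (line difference 1.41, SE 0.31, adjusted p = 0.035). SAT1, which breaks down polyamines, had Hs578 levels of 107, 90.3 and 86.8 CPM without and 115, 186 and 217 CPM with doxycycline, hardly different for hairpin 1 (line difference 1.54, SE 0.39, adjusted p = 0.048, and adjusted p = 0.056 with the hairpin as a block).

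ENO3, the muscle form of enolase, was the one gene called in both lines and in the line difference. It rose in Hs578 from 4.65, 5.18 and 5.47 to 7.21, 7.26 and 8.81 CPM (log2 fold change 0.61, adjusted p = 0.0039). In TT642 it fell from 90.4, 81.8 and 86.7 to 42.3, 48.1 and 51.9 CPM (-0.86, adjusted p = 0.0025). The changes of the 6 hairpin lines did not overlap, and the line difference was 1.47 (SE 0.16, adjusted p = 0.0017). Parental cells went from 3.96 to 4.79 CPM in Hs578, against 124 to 105 CPM in TT642. The other 2 expressed genes called in TT642 were CD82, a tetraspanin (1.35 in TT642 and 1.14 in Hs578), and CENPT, a kinetochore protein (0.71 and 0.56), and their line differences were -0.21 and -0.14, not called.

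Interferon-stimulated genes gave 3 called of 30 expressed (10%, against 3.76% of all expressed genes), IRF7, ISG15 and HLA-B, all higher, with a median of 0.43. The median change was 0.17 in Hs578 and -0.23 in TT642, and 29 of the 30 had a positive line difference in parental cells. ISG15, a ubiquitin-like modifier, stood at 7.79, 8.78 and 8.70 CPM without and 11.7, 17.3 and 23.6 CPM with doxycycline in Hs578 and at 78.3, 79.4 and 68.8 CPM without and 57.0, 24.0 and 50.2 CPM with doxycycline in TT642, with hairpin 2 the lowest of the induced TT642 lines (line difference 1.85, SE 0.45, adjusted p = 0.044). IRF7, the transcription factor that amplifies interferon production, stood in TT642 at 41.8, 36.9 and 29.8 CPM without and 28.6, 17.6 and 28.6 CPM with doxycycline (line difference 1.06, SE 0.27, adjusted p = 0.044), and neither line's own change was called. HLA-B, a class I antigen-presenting molecule, rose in Hs578 from 70.1 ± 3.85 to 202 ± 70.4 CPM, and parental Hs578 went from 62.2 to 174 CPM (line difference 1.31, SE 0.32, adjusted p = 0.045, and adjusted p = 0.051 with the hairpin as a block). Reads of HLA genes can be shared between close copies, so its level is uncertain.

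Glycolytic and hypoxia-responsive genes gave 8 called of 30 expressed, all higher in Hs578: SLC16A3, TPI1, ALDOA, P4HA1, PFKP, GAPDH, BNIP3 and LDHA. That is 26.7%, against 3.76% of all expressed genes. The list median was 0.34 in hairpin lines and 0.32 in parental cells. SLC16A3, the lactate exporter, rose in Hs578 from 33.5, 39.0 and 36.5 to 46.8, 75.6 and 69.0 CPM and stood in TT642 at 77.9, 81.7 and 77.2 CPM without and 57.7, 69.7 and 68.7 CPM with doxycycline (line difference 1.08, SE 0.20, adjusted p = 0.016). ALDOA, aldolase A, rose in Hs578 from 918 ± 27.1 to 1553 ± 195 CPM and stood in TT642 at 628 ± 26.9 to 646 ± 47.9 CPM (line difference 0.72, SE 0.14, adjusted p = 0.018). TPI1, triosephosphate isomerase, rose from 412 ± 7.54 to 679 ± 87.1 CPM (line difference 0.69, SE 0.13, adjusted p = 0.016). TXN and PRDX1, a thioredoxin and a peroxiredoxin that remove peroxides, were called higher (line differences 0.87 and 0.48) within a list of 18 NRF2 targets of which SLC7A11 was called lower. The shares of that list were 11.1% and 5.56%, against 3.76% and 3.22% of all expressed genes.

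Genes of the ribosome and the respiratory chain had mostly positive line differences. All 76 expressed cytosolic ribosomal protein genes had a positive line difference, with a median of 0.42, and 71 of them rose in Hs578, against 19.4% of all expressed genes. Parental cells gave the same median of 0.42 without a hairpin. There 75 of the 76 genes were positive, where 4096 of all 9181 expressed genes were. In hairpin lines only 6 were called for the line difference (7.89%, against 3.76% of all expressed genes). RPS26 rose in Hs578 from 38.1, 39.7 and 37.5 to 62.0, 66.5 and 81.9 CPM and stood in TT642 at 60.0, 61.1 and 58.5 CPM without and 64.0, 76.5 and 67.9 CPM with doxycycline (line difference 0.65, SE 0.15, adjusted p = 0.03). RPL35 (line difference 0.70, SE 0.18, adjusted p = 0.043) followed. RPLP1 came next (line difference 0.63, SE 0.16, adjusted p = 0.043). These genes have near-identical pseudogenes, so their counts are uncertain. Of 73 nuclear genes of the respiratory chain 12 were called (16.4%), all higher, with a median of 0.34, led by p-value by ATP5L (0.55), ATP5G1 (0.78) and NDUFB1 (0.77). Of 73 mitochondrial ribosomal proteins 8 were called (11.0%), all higher, with a median of 0.26, led by p-value by MRPL27 (0.78), MRPL41 (0.76) and MRPL14 (0.60). These shares stand against 3.76% of all expressed genes. The parental medians were 0.14 for the respiratory chain and -0.08 for the mitochondrial ribosome. All 13 genes of the mitochondrial genome had a positive line difference, with a median of 0.60, against 0.22 in parental cells. The test of edgeR called 0 of them and DESeq2 2, and 7 had an unadjusted p under 0.05, where 16% of all expressed genes had one with a positive difference. The log2 ratio of the median mitochondrial gene was 0.21, 0.92 and 1.46 over the Hs578 hairpin lines, and -0.02, 0.14 and 0.74 over those of TT642, so the third TT642 hairpin line also stood high. The share of counts from the mitochondrial genome, given above, moved with these values, and its part in the other groups was not tested.

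The direction of the line difference moved with transcript length and base composition. Genes called higher in Hs578 had a median transcript length of 1763 bases and 57.5% GC, genes called lower 6049 bases and 43.4% GC, and all expressed genes 3585 bases and 47.9% GC. Of 847 expressed genes with a transcript under 1.5 kb, 133 were called higher (15.7%) and 1 lower (0.118%). Of 1830 genes over 6 kb, 12 were called higher (0.656%) and 149 lower (8.14%). The shares over all expressed genes were 3.76% and 3.22%. Under 1.5 kb the median log2 ratio was 0.35, 0.37 and 0.50 in the Hs578 hairpin lines and 0.22 in parental Hs578, against 0.00, 0.09 and 0.01 in the TT642 hairpin lines and 0.04 in parental TT642. Over 6 kb it was -0.26, -0.23 and -0.27 in the Hs578 hairpin lines and -0.25 in parental Hs578, against -0.01, -0.08 and 0.05 in TT642 hairpin lines and -0.02 in parental TT642. The slope with length was thus present in every Hs578 pair, with or without a hairpin. The Spearman coefficient with GC content was 0.50, 0.43 and 0.42 in the Hs578 hairpin lines and 0.38 in parental Hs578. In TT642 it differed in sign between same-numbered pairs, at -0.06, 0.44 and -0.23, and was 0.19 in parental cells. Across expressed genes, the Spearman coefficient of the line difference was -0.54 with length and 0.42 with GC content.

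**Figure D3:**
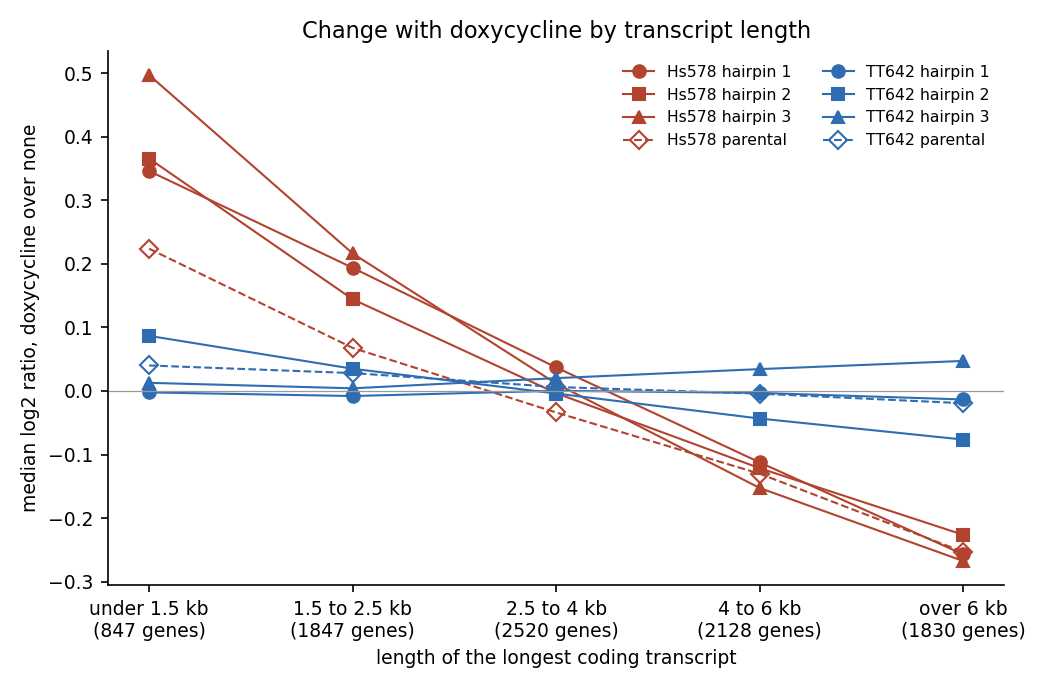
Median log2 ratio, doxycycline over none, of expressed genes in 5 bins of transcript length (horizontal axis, with the number of genes). Curves are given for each pair of same-numbered hairpin libraries and for parental cells. All 4 Hs578 curves fall from between 0.22 and 0.50 under 1.5 kb to between -0.27 and -0.23 over 6 kb, and the TT642 curves stay between -0.08 and 0.09.

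The gene groups were examined again with each library adjusted for length and GC content, an alternative chosen after seeing the data. The number of expressed genes called went from 641 to 254, of which 169 were among the 641. Of 9172 expressed genes with a known length, 139 were then called higher and 115 lower. The list counts that follow are to be read against these smaller totals. The amino acid stress list had 8 called genes of 38, all lower, 7 of them among the 13, and a median of -0.49. The matrix enzymes had 4 of 20, all higher and all among the 7 called before, with a median of 0.29. The hypoxia and glycolysis list had 4, of which 3 were among the 8, with a median of 0.28, and TPI1 and ALDOA were no longer called. The YAP target list had 2, of which 1 was among the 3, and its median went from -0.33 to -0.19. ASAP1 went to -0.28 (adjusted p = 0.13) and PTPN14 to -0.18 (adjusted p = 0.39). The contractile list had 1 called gene and a median of 0.01, with MYL9 and TPM2 no longer called. The cytosolic ribosome went to 0 called by edgeR with a median of 0.10, the respiratory chain to 1 with 0.05, the mitochondrial ribosome to 1 with 0.01, and the interferon list to 0 with 0.31. The list of S phase genes, described below, had 1 called gene, CLSPN, and a median of 0.24, with CDT1 and FEN1 no longer called. Of the 4 genes described first, TAGLN changed from 2.37 to 2.16, TNC from 1.89 to 2.06, SESN2 from -1.30 to -1.40 and GDF15 from -2.36 to -2.82.

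Genes of DNA replication had a positive median line difference in hairpin lines and a negative one in parental cells. Of 40 expressed S phase genes 36 had a positive line difference and 5 were called, all higher: CLSPN, CDT1, FEN1, RFC2 and CCNE1. The called share was 12.5%, against 3.76% of all expressed genes. The list median was 0.30, from 0.12 in Hs578 and -0.19 in TT642. In parental cells the median was -0.76, and all 40 were negative. CLSPN, a checkpoint adaptor at replication forks, rose in Hs578 hairpin lines from 56.8, 56.1 and 55.3 to 86.4, 73.3 and 98.2 CPM and stood in TT642 at 13.0, 12.2 and 12.9 CPM without and 9.53, 9.71 and 11.4 CPM with doxycycline (line difference 0.93, SE 0.16, adjusted p = 0.013). Parental Hs578 went the other way, from 54.7 to 27.4 CPM. FEN1, a flap endonuclease, rose in Hs578 hairpin lines from 61.3, 69.7 and 66.1 to 92.0, 75.7 and 87.6 CPM, with a parental change from 59.6 to 30.5 CPM (line difference 0.68, SE 0.15, adjusted p = 0.026). CDT1, which licenses replication origins, showed 0.69 in hairpin lines and -0.30 in parental cells. Of 37 mitosis genes AURKB alone was called (2.70%, against 3.76% of all expressed genes), and the medians were 0.12 in hairpin lines and -0.95 in parental cells. The hairpin median of the mitosis list turned to -0.15 without hairpin 1, to -0.03 without the induced Hs578 hairpin 1 library and to -0.05 with log2(FPKM + 1), and that of the S phase list went to 0.14 without hairpin 1. The parental value rests on 1 library per group, so it cannot be told apart from the state of those cultures.

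**Figure D4:**
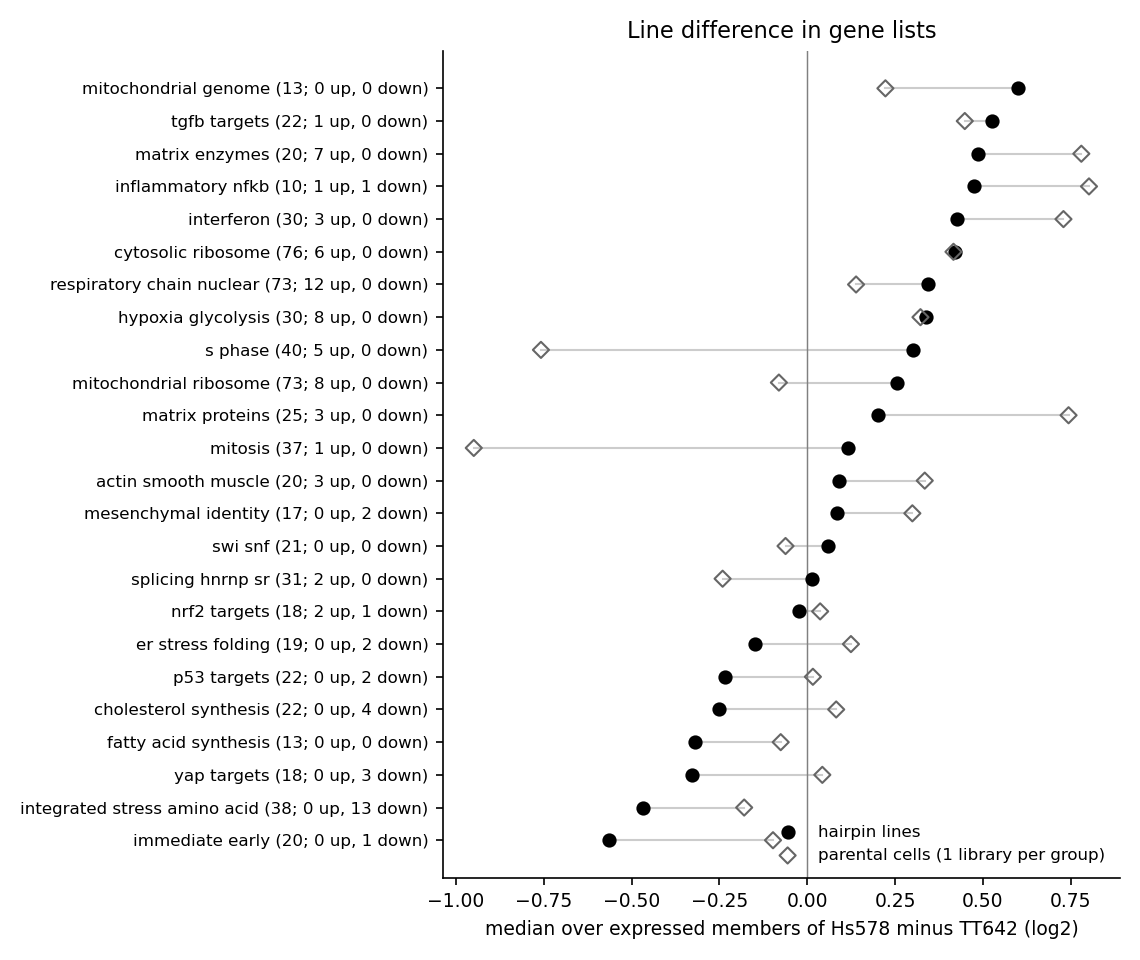
Median line difference (Hs578 minus TT642, log2) over the expressed members of each gene list, in hairpin lines (filled circles) and parental cells (open diamonds, 1 library per group), with the number of members and of those called higher and lower beside each name. The amino acid stress list has 13 genes called lower; S phase and mitosis lie at 0.30 and 0.12 in hairpin lines and at -0.76 and -0.95 in parental cells.

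The parental libraries gave the same contrast without a hairpin. They were outside the contrast by which the genes were called, but shared its fit. The question is how much of the line difference is also present when doxycycline is given to cells that lack a hairpin. In edgeR, with the spread of the hairpin groups assumed for the lone libraries, 0 of 14035 genes were called for the parental line difference (0%). At an unadjusted p under 0.05 there were 1710 (12.2%), and DESeq2 called 123. Of the 641 genes called in hairpin lines, 532 had the same sign in parental cells (83.0%), against 65.6% of all expressed genes. By direction these were 271 of the 345 called higher and 261 of the 296 called lower, with median parental differences of 0.31 and -0.41. Across the 641 genes the Pearson coefficient between hairpin and parental line differences was 0.71, but these are both tails of the hairpin difference. It was 0.52 within the 345 called higher, 0.23 within the 296 called lower and 0.47 across all expressed genes. Genes of 1 library share its depth and composition and are not independent.

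Testing the hairpin line difference against the parental one separated few genes. The difference between them was called for 0 genes by edgeR (0%) and for 29 by DESeq2, and 1073 of 14035 genes (7.65%) and 813 of the 9181 expressed ones (8.86%) had an unadjusted p under 0.05. This difference contains the hairpin line difference that the genes were chosen for. Among named genes, CLSPN and FEN1 had the lowest unadjusted p, with hairpin minus parental values of 1.99 and 1.66, and their hairpin and parental differences had opposite signs. RPS26, the only 1 of 76 expressed cytosolic ribosomal protein genes with a negative parental difference, followed with 1.07, where that difference was -0.42. These genes were not called by edgeR for it. By hairpin and parental difference side by side, TAGLN had 2.37 and 1.72, TNC 1.89 and 0.64, SESN2 -1.30 and -0.64, and GDF15 -2.36 and -0.88. With 1 parental library per group, how much of each difference depends on the hairpin was not resolved.

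**Figure D5:**
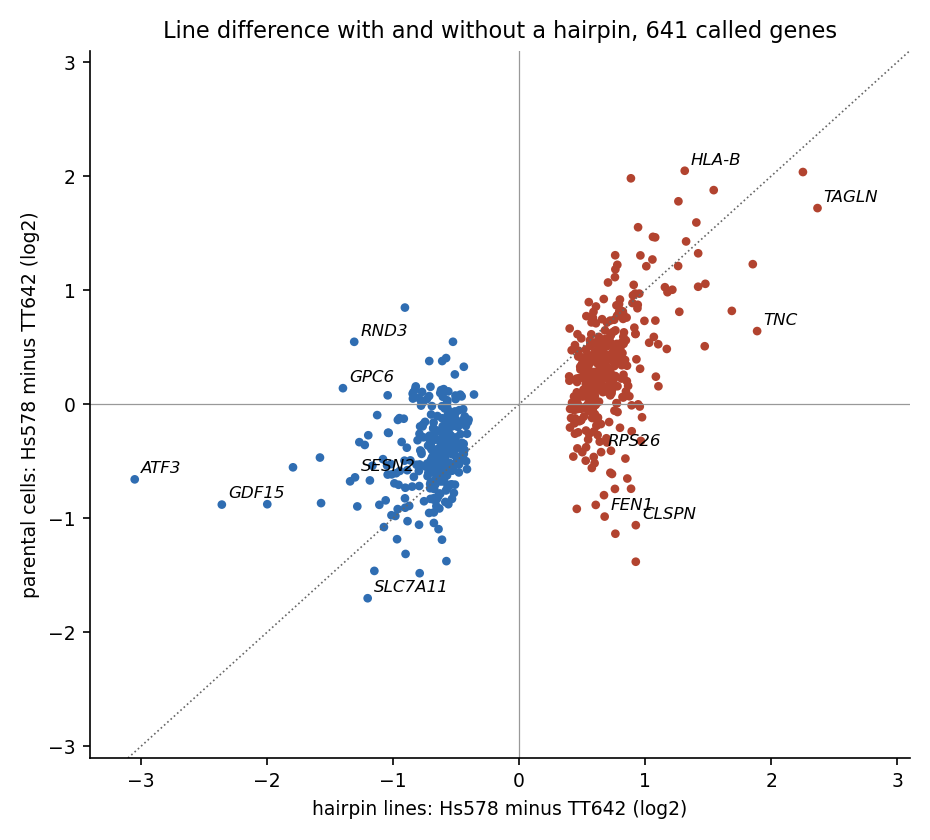
Line difference (Hs578 minus TT642, log2) of the 641 called genes in hairpin lines (horizontal axis) and in parental cells (vertical axis); red points were called higher and blue points lower, and the dotted line marks equality. Of the 641 points, 532 lie in the quadrants of equal sign; CLSPN, FEN1 and RPS26 lie below 0 on the parental axis.

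The 641 calls depended on single libraries. Without hairpin 1 in both lines 114 expressed genes were called, without hairpin 2 there were 36, and without hairpin 3 there were 2, ATF3 and FOSB, of which ATF3 alone was among the 641. FOSB, an AP-1 subunit, is named only because that count is small. It stood at 352, 244 and 24.5 CPM without and 11.1, 10.7 and 6.33 CPM with doxycycline in Hs578, so hairpin 3 began from a lower level than hairpins 1 and 2. Leaving out single libraries gave between 55 calls, without the uninduced TT642 hairpin 3 library, and 1866 calls, without the induced Hs578 hairpin 1 library. With the hairpin as a block, which pairs the libraries of the same number, 1537 expressed genes were called, and 636 of the 641 were among them.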

How the data were processed

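Polyadenylated RNA of 16 samples was sequenced from stranded libraries made with 500 ng of total RNA, per the labels' protocols. The authors deposited raw read counts for 20114 genes and FPKM values for 20111 genes, per the file headers, on hg19 per the submitters' processing notes. No aligner, counting tool, strand setting or treatment time is given in the sources used here, so counts of overlapping, antisense and near-identical genes are uncertain. Groups come from the labels, and column names matched sample titles.

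Counts were tested with the quasi-likelihood test of edgeR 4.0.16 (R 4.3.3) with TMM scaling, its default filter (14035 genes) and robust moderation. A single fit of all 16 libraries had a mean for each group and 8 residual degrees of freedom. Tests were two-sided, with Benjamini-Hochberg adjustment over all genes tested and a threshold of 0.05. Log2 ratios of single pairs used a prior count of 2. Alternatives were DESeq2 1.42.0, RLE scaling, other filters and floors, the hairpin libraries alone, limma 3.58.1 on log2(FPKM + 1) and log2(FPKM + 0.1), leaving out hairpins or libraries, a replicate block, and a loess offset for length and GC content, the last chosen after seeing the data. Lengths (longest coding transcript) and GC contents from GENCODE 29 matched 99.3% of the genes tested. The script was tested on simulated data.

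The genes and the 32 lists were chosen with earlier results of these data known. Named are PRRX1, SMARCB1, the 4 genes given with the comparison, the 12 most positive and 12 most negative called differences among expressed genes, and up to 3 called members, smallest p first, of lists with at least 3. Of these, 2 genes are not reported here. Other genes were named as background or because a count was small. Hairpin numbers were taken to pair libraries, since the titles give the same numbers with and without doxycycline. The labels do not state that a number is a derived line, or the same hairpin sequence in both lines. Deviations of same-numbered libraries from their group means had correlations of 0.27, 0.04 and 0.05 (Hs578) and 0.51, 0.41 and 0.42 (TT642). In Hs578, uninduced library 2 had 0.19 with induced library 3, and uninduced library 3 had 0.07 with induced library 2, above their same-numbered values. All other differently numbered pairs were negative in both lines. No 2 libraries of a group agreed within sampling noise (lowest chi-square per degree of freedom 5.35).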

Additional observations from a re-analysis of the deposited data

Results flagged for a closer look

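TAGLN, TNC, SESN2 and GDF15 are listed here as the genes given with the comparison, with line differences already known, and no test is given for them. Each other result was selected by a test of the difference itself, edgeR's quasi-likelihood test of the line difference. That test separated the effect of induction in Hs578 from that in TT642 for 641 expressed genes. All values are line differences on the log2 scale, and no explanation was tested. Adjusted p-values stand above for some of these genes and are not printed for the others.

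The genes given with the comparison had line differences of 2.37 (TAGLN), 1.89 (TNC), -1.30 (SESN2) and -2.36 (GDF15), and were chosen for them. Among the other large positive values were 1.85 (ISG15), 1.69 (SAMD11), 1.54 (SAT1), 1.48 (A4GALT), 1.47 (ENO3), 1.42 (HIC1), 1.42 (TGFBI), 1.41 (CRIP2) and 1.33 (EFEMP2). The other most negative values were -3.05 (ATF3), -2.0 (CALCRL), -1.79 (PTGS2), -1.58 (PDP1), -1.57 (NCAM2), -1.40 (GPC6), -1.34 (KITLG), -1.31 (RND3), -1.28 (CHAC1) and -1.27 (ZFHX2).

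Members of the lists added -1.20 (SLC7A11), 0.92 (MYL9), 0.94 (TPM2), 1.22 (BMP1), 0.90 (PLOD1), 0.73 (P4HA2), -0.60 (AXL), -0.49 (ASAP1), -0.48 (PTPN14), 1.06 (IRF7) and 1.31 (HLA-B). Metabolic genes added -0.57 (SQLE), -0.75 (LSS), 1.08 (SLC16A3), 0.69 (TPI1) and 0.72 (ALDOA). Ribosomal and mitochondrial genes added 0.65 (RPS26), 0.70 (RPL35), 0.63 (RPLP1), 0.78 (MRPL27), 0.76 (MRPL41), 0.60 (MRPL14), 0.55 (ATP5L), 0.78 (ATP5G1) and 0.77 (NDUFB1). Replication and redox genes added 0.93 (CLSPN), 0.69 (CDT1), 0.68 (FEN1), 0.87 (TXN) and 0.48 (PRDX1).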

How the results depend on the processing

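Since the 641 genes were called on these libraries, their direction was largely fixed by the choice, and a kept sign is no measure of stability. Over all genes tested, the line difference in hairpin lines was called for 735 genes, for 1425 by DESeq2, for 1118 with limma on log2(FPKM + 1) and for 280 with the length and GC offset. Over expressed genes the 641 became 1286 by DESeq2 and 254 with the offset. RLE scaling, no filter, no robust moderation, the hairpin libraries alone and the 4 other floors gave between 572 and 704. With log2(FPKM + 1), 233 of 772 calls were higher in Hs578 (30.2%), against 345 of 641, and with log2(FPKM + 0.1) 190 of 624. On these scales the median line difference of all expressed genes was -0.11 and -0.13, so list medians are to be read against that shift. Of the 641 genes, 400 stayed called with log2(FPKM + 1), 340 with log2(FPKM + 0.1) and 169 with the offset.

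The replicate block, with 4 residual degrees of freedom, called 1763 genes in all, 1537 expressed genes and 16 genes for the parental line difference. With the offset and the replicate block, 457 expressed genes were called, 225 of them among the 641, and 11 for the parental difference. The block ended the calls of SAT1, ATF3, PTGS2 and HLA-B and of no other named gene. With the offset 27 of the 53 named called genes lost their call, among them TGFBI, EFEMP2, MYL9, TPM2, ISG15, KITLG, RND3, ATF3, IRF7 and HLA-B. The parental line difference, 0 by edgeR, was called for 123 genes by DESeq2, 13 with log2(FPKM + 1) and 1 with log2(FPKM + 0.1). Its difference from the hairpin lines, 0 by edgeR, was called for 29, 2 and 2, and for 1 with the offset.

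Leaving out a hairpin in both lines, or a single library, moved the count over all genes between 2 and 2082 and over expressed genes between 2 and 1866, the parental count between 0 and 135, and its difference from the hairpin lines between 0 and 2. Without hairpin 1, 2 or 3, 34, 44 and 52 of the 53 named called genes lost their call, and none of the 53 was called under every alternative. The line difference of PRRX1, never called, ran from -0.97, without hairpin 2, and turned to 0.30 without hairpin 3, to 0.27 without the induced TT642 hairpin 3 library and to 0.0062 with the offset and the replicate block. Among lists of at least 10 genes, the medians of the mitosis, NRF2 target, splicing, mesenchymal identity and SWI/SNF lists turned sign when libraries were left out. The interferon median went to 0.17 without hairpin 2, the fatty acid synthesis median to -0.14 without hairpin 3 and the mitochondrial genome median to 0.34 without the induced Hs578 hairpin 3 library. The causes were not tested. With 3 libraries per group, and 1 per parental group, small differences between the lines were not detectable at this depth and replication.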

Other observations

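The larger of the changes behind a called difference lay in TT642 for 24 of the 641 genes, among them ENO3, IRF7, AXL and EPHB2. EPHB2, an ephrin receptor, stood at 186, 176 and 179.8 CPM without and 169, 168 and 144 CPM with doxycycline in Hs578 and at 6.12, 4.57 and 4.39 CPM without and 7.23, 11.5 and 7.15 CPM with doxycycline in TT642. Its change was -0.18 in Hs578 and 0.79 in TT642, called in neither line, and its line difference was -0.96 (SE 0.23). GPCPD1, a phosphodiesterase of choline metabolism, had -0.43 in Hs578 and 0.54 in TT642, a line difference of -0.97. Both genes were named after their values were seen.

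Mesenchymal identity genes gave 2 called of 17 expressed (11.8%, against 3.22% of all expressed genes), AXL and ITGB1, both lower in Hs578. ITGB1, the beta 1 integrin chain, went from 1058 ± 75.0 to 691 ± 13.1 CPM in Hs578, against 497 ± 30.8 to 479 ± 60.6 CPM in TT642 (SD, n = 3), a line difference of -0.56 (SE 0.14), while its parental line difference was 0.11. For 21 expressed SWI/SNF subunits, edgeR called 0 and DESeq2 2, with 5 at an unadjusted p under 0.05, where 31.2% of all expressed genes had one, and the median line difference was 0.06. Splicing factors gave 2 called of 31 (6.45%, against 3.76% of all expressed genes), both higher, with a median of 0.01. Of 10 expressed inflammatory genes NFKBIA was called higher (0.94) and PTGS2 lower, each 10% of the list, against 3.76% and 3.22% of all expressed genes.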
